A study of Homo sapiens with 6 samples.

Results

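The regions described here are stretches of chromatin that were open in MCF-10A cells with PIK3CA E545K and in cells with wild-type PIK3CA, but had no peak in cells with PIK3CA H1047R. MCF-10A is a non-tumorigenic human breast epithelial line, and openness was measured by ATAC-seq, which uses Tn5 transposase to insert sequencing adapters into accessible DNA. The H1047R knock-in, the E545K knock-in and the parental WT line each gave 2 samples, 6 in all, and each genotype is represented by 1 peak list pooled over its samples. Both knock-in lines were maintained without EGF and the parental WT cells with 20 ng/ml EGF. For the last 24 h every line had 0.2 ng/ml EGF and 1% stripped serum, and insulin, hydrocortisone and cholera toxin were present throughout. Maintenance medium therefore cannot be told apart from genotype between the knock-ins and WT, whereas H1047R and E545K shared it. The labels do not say whether a knock-in line is 1 clone, so line and mutation cannot be told apart either.

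Members were selected on the peak lists themselves. Peaks of the 3 lists that touched or overlapped were merged into 120615 regions, and a region was kept when it held at least 1 E545K peak and at least 1 WT peak and no H1047R peak. This gave 2571 members, which together covered 1.70 Mb. They were 3.37% (Wilson 95% interval 3.24 to 3.50) of the 76403 regions with both an E545K and a WT peak. The other classes that lacked a single list were larger. Regions with H1047R and WT peaks and no E545K peak numbered 11766, or 13.7% of 85598, and regions with H1047R and E545K peaks and no WT peak numbered 5568, or 7.01% of 79400. The lists held 106747 H1047R, 89416 E545K and 98910 WT peaks, so the list that members lack was the longest. With each list cut to the 89416 peaks of largest area, members numbered 4698 and made up 6.38% of E545K and WT regions, against 7.80% for regions without E545K and 7.58% for regions without WT, so the sizes of the 3 classes depend on list length. The absence of a peak means that H1047R did not pass the caller's threshold there, not that the chromatin was closed. With 1 pooled list per genotype there is no replicate check, depth is unknown, no test across samples was possible, and every interval covers counting error only. Promoters of 9 of 10 basal breast epithelial markers had a peak in each list, TP63 being without one at its canonical start, and 4 of 12 markers of other cell types had one in each list.

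PIK3CA encodes the catalytic p110-alpha subunit of PI3K, which makes the lipid PIP3 at the plasma membrane and so activates AKT. E545K lies in the helical domain and relieves inhibition by the regulatory subunit, whereas H1047R lies in the kinase domain near the membrane-binding surface. Open chromatin in epithelial cells is largely set by AP-1, by TEAD factors with YAP and TAZ, and by lineage factors. Serum response factor (SRF) binds the CArG box, an A- and T-rich core between CC and GG, and with its partners of the MRTF family reads the state of the actin cytoskeleton and drives genes of adhesion and contraction. The glucocorticoid receptor binds DNA when hydrocortisone is present.

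The sequences of 3 members are shown as examples of strong or isolated ones. The first is among the 15 strongest members by area, and the other 2 have sharp summits and lie far from any H1047R peak. Each is hg38, plus strand, centred on the WT summit. Capitals mark AP-1 motifs (TGANTCA on either strand). All 3 hold this motif and are not typical in that. Within 100 bp of the WT summit AP-1 occurred in 20.4% of members, against 34.9% of regions that all 3 lists shared. The stretch upstream of RBM19, 198 kb from its start, holds 2 AP-1 motifs. The AP-1 motif downstream of IRX1, in a region 145 kb from its start, overlaps a HOX-PBX motif (TGATNNAT). A match describes the letters and is not evidence of binding.
Downstream of CAVIN2, chr2:191831167-191831367: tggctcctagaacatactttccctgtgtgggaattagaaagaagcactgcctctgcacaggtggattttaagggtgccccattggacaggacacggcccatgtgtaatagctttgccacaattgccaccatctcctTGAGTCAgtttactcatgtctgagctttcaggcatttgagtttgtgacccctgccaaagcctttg
Upstream of RBM19, chr12:114163921-114164041: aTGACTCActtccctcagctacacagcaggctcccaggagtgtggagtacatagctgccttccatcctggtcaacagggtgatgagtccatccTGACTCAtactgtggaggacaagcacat
Downstream of IRX1, chr5:3741106-3741226: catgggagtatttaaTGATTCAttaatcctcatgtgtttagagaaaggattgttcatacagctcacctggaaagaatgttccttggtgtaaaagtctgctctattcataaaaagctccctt

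A second set of sequences carries the CArG box, the motif with the largest ratio of its share in members to its share in shared regions. Shown are 10 of the strongest members with a CArG box within 100 bp of the WT summit, with the box in capitals and 25 bases to either side, hg38, plus strand. None is at a promoter. Intergenic ones are named after the nearest coding start, which may be far. It lies 95.4 kb away for KCNJ15, 707 kb for KCNA4, 59.4 kb for MAP10 and 52.2 kb for PTPRM. They include introns of GSN, which encodes the actin-severing protein gelsolin, of LPP, a zyxin-family protein of focal adhesions, of ARHGAP42, a GTPase-activating protein, and of IGFBP7, a secreted matrix-associated protein. The GSN region is the widest at 1673 bp, and the others are between 435 and 1093 bp wide.
KCNJ15, intergenic, chr21:38352014-38352073: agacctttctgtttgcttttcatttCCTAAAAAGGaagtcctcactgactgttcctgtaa
KCNA4, intergenic, chr11:29310220-29310279: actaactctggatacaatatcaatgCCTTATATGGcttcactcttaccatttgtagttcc
COL25A1 intron, chr4:108881521-108881580: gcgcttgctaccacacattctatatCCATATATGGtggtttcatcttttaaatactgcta
GSN intron, chr9:121332249-121332308: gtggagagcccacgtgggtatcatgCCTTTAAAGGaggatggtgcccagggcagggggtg
MAP10, intergenic, chr1:232745827-232745886: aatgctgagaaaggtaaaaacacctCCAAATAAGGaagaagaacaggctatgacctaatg
IGFBP7 intron, chr4:57102207-57102266: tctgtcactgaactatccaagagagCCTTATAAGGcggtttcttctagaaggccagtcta
THRB intron, chr3:24387707-24387766: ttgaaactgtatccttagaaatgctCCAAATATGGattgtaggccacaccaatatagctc
ARHGAP42 intron, chr11:100877020-100877079: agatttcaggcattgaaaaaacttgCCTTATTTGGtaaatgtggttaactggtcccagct
LPP intron, chr3:188270562-188270621: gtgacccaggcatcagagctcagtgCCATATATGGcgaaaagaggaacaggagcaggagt
PTPRM, intergenic, chr18:7515121-7515180: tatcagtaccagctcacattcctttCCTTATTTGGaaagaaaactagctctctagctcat

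Most members were weak peaks. The E545K peaks of members had a median area of 307, with quartiles at 241 and 446, and the WT peaks had a median area of 337, with quartiles at 258 and 489. Area is the caller's signal summed over the peak, as the authors deposited it. It grows with both height and width, and the lists hold no peak under 200. In regions shared by all 3 lists the median area was 963 in H1047R, 763 in E545K and 900 in WT. The median summit of members, as −log10 p, was 2.93 in E545K and 3.13 in WT, against 4.90 in H1047R, 4.35 in E545K and 4.88 in WT for shared regions. These values bear on how members were chosen, because a weak peak is more easily missed in another list. The E545K and WT summits of a member lay within 100 bp of each other in 2264 members (88.1%), with a median distance of 13 bp. The nearest H1047R peak lay a median of 4711 bp away (quartiles 1452 and 14138 bp). It was within 1 kb of 478 members and over 100 kb from 106 members.

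At the edge of the rule, the member closest to an H1047R peak lay 64 bp from one, in SBF1, with an area of 839 in E545K and 635 in WT. The next lay 78 bp away in UBAP2, with 427 in E545K and 230 in WT. Just outside the rule, a region in PRKCA was held by an H1047R peak of area 200, the smallest in the list, beside 226 in E545K and 559 in WT. Regions in NEDD4L (306 in E545K and 273 in WT) and BTBD10 (240 in E545K and 238 in WT) were likewise kept out by an H1047R peak of area 200.

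The share of regions without an H1047R peak fell as the shared E545K and WT peaks became stronger. It was 14.6% (1046 of 7184 regions) where the weaker of the E545K and WT peaks was in the lowest 10 percentiles of its list, 1.48% between percentiles 40 and 50, and 0.0627% (5 of 7974) above percentile 90. Regions without an E545K peak started higher, at 57.1%, and reached 0 of 8735 above percentile 90, which allows a share of up to 0.0440% (upper Wilson bound). Regions without a WT peak started at 26.3% and reached 2 of 8205. Above percentile 90, then, 5 regions lacked H1047R alone, 0 lacked E545K alone and 2 lacked WT alone. These counts are small and the Wilson intervals of the shares overlap, at 0.0268 to 0.147%, 0 to 0.0440% and 0.00668 to 0.0888%. Members whose E545K and WT peaks were both in the upper 50% of their lists numbered 137, or 0.350% of 39184 such regions. By the same measure the other classes had larger shares, with 235 of 43059 (0.546%) without E545K and 330 of 40502 (0.815%) without WT.

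**Figure D1:**
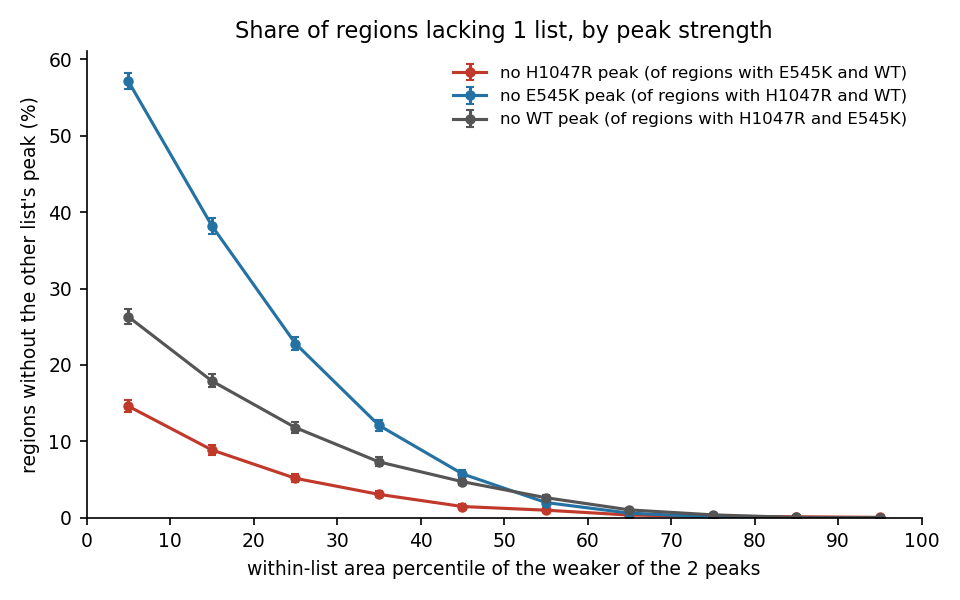
Percent of regions held by 2 lists that lack a peak in the remaining list (vertical axis), by the within-list area percentile of the weaker of the 2 peaks in classes of 10 percentiles (horizontal axis); bars are Wilson 95% intervals. Regions without an H1047R peak run between 14.6% and 0.0627%, below the other classes in the weakest class.

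A subset of members was wide. Of the 2571 members, 389 (15.1%) were over 1000 bp and 128 (4.98%, 4.20 to 5.89) were over 2000 bp. Only 7 of the 11766 regions without E545K (0.0595%, 0.0288 to 0.123) and 67 of the 5568 regions without WT (1.20%, 0.949 to 1.53) were over 2000 bp. The lists themselves differed in peak width, whose median was 539 bp for E545K, 466 bp for H1047R and 466 bp for WT. Regions without E545K lack the list of widest peaks, whereas members and regions without WT hold it. How far list peak width accounts for these shares was not tested. The wide members were low and long: those over 2000 bp had a median summit of 2.73 in E545K and 2.50 in WT, below the medians of members up to 1000 bp, which were 2.96 in E545K and 3.20 in WT. They were also uneven between the lists that held them. The E545K peak had the higher within-list percentile in 100 of 128 members over 2000 bp, but in only 858 of 2182 members up to 1000 bp. The median area over 2000 bp was 1268 in E545K and 551 in WT.

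**Figure D2:**
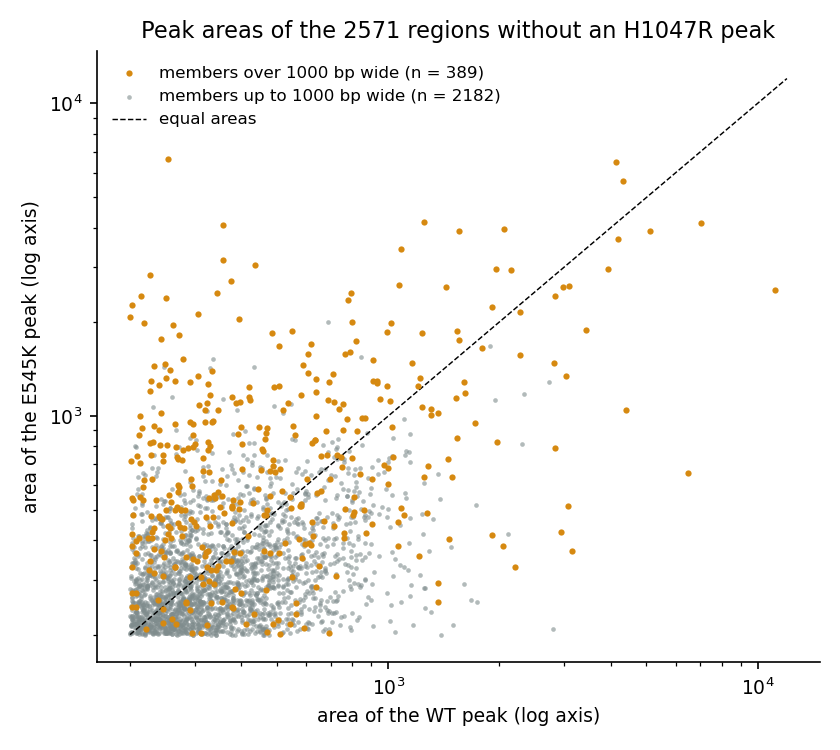
Area of the E545K peak (vertical, log axis) against the WT peak (horizontal, log axis) for each of the 2571 members, with the 389 members over 1000 bp in orange, the 2182 narrower ones in grey and a dashed line at equal areas. Most narrow members lie near the lower limit of 200 in both lists, and the largest areas belong to wide members.

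By position, members lay mainly in introns and between genes. Introns of protein-coding genes held 1148 members (44.7%), intergenic sequence 1139 (44.3%), exons 217 (8.44%, 7.43 to 9.58) and promoters, within 1 kb of a canonical start, 67 (2.61%, 2.06 to 3.30). Shared regions weighted to the members' WT areas had 4.52% in exons and 4.31% at promoters, values that lie outside the members' intervals. Weighting means averaging over 10 classes of WT area in the members' proportions. Regions without E545K, weighted in the same way, had 4.76% in exons and 1.64% at promoters. A promoter share below that of shared regions was thus not particular to members. Of the 389 members over 1000 bp, 85 (21.9%) were exonic. The median distance to a coding start was 45963 bp for members and 32315 bp for shared regions.

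Among the strongest members, a region in an intron of DST, which encodes the plakin dystonin that links keratin to hemidesmosomes, had an area of 4147 in E545K and 7012 in WT, and a further DST member had 2943 in E545K and 3940 in WT. A region 15.2 kb from the start of CAVIN2, which encodes a coat protein of caveolae, had 6472 in E545K and 4123 in WT. The widest named member, 11276 bp inside ITGB4, the beta-4 integrin of hemidesmosomes, differed between the lists that held it, at 2537 in E545K and 11123 in WT. H1047R peaks covered 23% of the ITGB4 body, E545K peaks 68.5% and WT peaks 94.5%, and these figures include the members themselves. Further members among the 15 strongest were nearest ETS2 (an ETS transcription factor), CBR4 (the region lies in PALLD), MYADM, PPP1R15A, OXR1, SLC22A5, PRDM9, YWHAZ, PDLIM5 and PER1, with areas between 1885 and 3969 in E545K and between 1957 and 5108 in WT. Strong areas here came largely from width, since 13 of the 15 strongest members, all but the regions near OXR1 and PRDM9, were over 2000 bp wide.

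Sharp and high members were few. The summit passed 5 in both lists in 10 members. The region upstream of RBM19 was 804 bp wide, with a summit of 7.43 in E545K and 7.70 in WT, and its nearest H1047R peak was 196724 bp away. A region 210 kb upstream of OXR1 had 7.34 in E545K and 7.92 in WT. The promoter of PRDM9, which encodes a histone methyltransferase that places recombination sites in germ cells, had a summit of 7.54 in E545K and 6.73 in WT, and no H1047R peak within 19460 bp. The start shared by CCND2, which encodes cyclin D2, and the overlapping gene model ENSG00000285901 had 5.61 in E545K and 5.79 in WT. The region downstream of IRX1, an Iroquois homeobox gene, had 5.59 in E545K and 5.41 in WT.

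Promoter members belonged to genes of varied roles. The 15 strongest were at PRDM9, ENSG00000285901 (CCND2), AMH, H1-3, SGSM1, ADGRB3, ZNF569, FOXH1, NLGN1, NHLRC4, LENEP, EFCC1, IGFBP7, FIBCD1 and SOX18. H1-3, a linker histone gene, had an area of 732 in E545K and 1003 in WT. AMH, which encodes anti-Müllerian hormone, had 1277 in E545K and 931 in WT, and ADGRB3, an adhesion G-protein-coupled receptor, had 683 in E545K and 777 in WT with no H1047R peak within 290622 bp. Counted by promoter window rather than by merged region, 87 of the 12601 coding promoters with E545K and WT peaks had no H1047R peak (0.690%). PIK3CA was not among them. Its promoter area was 7244 in H1047R, 6416 in E545K and 7476 in WT, and 0 of its 2 regions was a member.

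Most genes with a member had only 1, and a few had several. When each region was given to the closest coding start, at most 100 kb away, 1667 members fell to 1360 genes, or 2.93% of the 56989 regions placed this way. Of these genes, 1151 had 1 member and 22 had at least 4. YWHAZ, which encodes the 14-3-3 zeta adaptor, had the most, with 10 members among its 26 regions. CAV1, which encodes caveolin-1, the main caveolar protein, had 8 of 19, and NEDD9, a Cas-family scaffold of focal adhesions, had 7 of 15. Then came, with 6 each, PDLIM5 (6 of 23), an actin-associated PDZ-LIM protein, FBXO32 (6 of 25), a ubiquitin ligase subunit and FOXO target, ITGB1 (6 of 19), the beta-1 integrin, KLF7 (6 of 14), a zinc-finger factor, and IRX1 (6 of 8). ETS2, SLC20A2, EID3 and ZSWIM6 had 5 each, and ITGB6 had 4. A gene with more regions has more chances to hold a member, and a broad open stretch can be split into several regions. With peaks up to 1000 bp apart merged, YWHAZ had 4 members, CAV1, NEDD9 and FBXO32 1 each and PDLIM5 0, and 4 genes had at least 4.

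At several of these genes the E545K and WT lists showed broad openness over the gene body that the H1047R list did not. Coverage counts the same peaks that chose the members. Lower H1047R coverage at genes picked for many members therefore follows in part from the rule. Peaks covered 12.6% of the YWHAZ body in H1047R, 61.8% in E545K and 55.4% in WT. At CAV1 the figures were 13.4% in H1047R, 82.4% in E545K and 63.1% in WT. At FBXO32 they were 12.6% in H1047R, 34.5% in E545K and 35.4% in WT, and at NEDD9 6.17% in H1047R, 16.7% in E545K and 15.3% in WT. The promoters of these genes kept a peak in every list, with areas for YWHAZ of 17740 in H1047R, 24040 in E545K and 23181 in WT and for CAV1 of 9426 in H1047R, 13575 in E545K and 13423 in WT. Other genes with many members did not show this. KLF7 was covered to 18.0% in H1047R, 20.1% in E545K and 19.4% in WT, ITGB1 to 19.3% in H1047R, 21.8% in E545K and 22% in WT, and ITGB6 to 31.7% in H1047R and in E545K and 13.2% in WT.

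Members also lay together in stretches between neighbouring H1047R peaks. Of 2285 such stretches holding a member, 2090 held 1, and 18 (0.788%, 0.499 to 1.24) held at least 4 members, 99 members in all. The other classes showed such grouping too: at least 4 regions without E545K lay in 59 of 9889 stretches between E545K peaks (0.597%, 0.463 to 0.769), and at least 4 regions without WT in 15 of 4961 stretches between WT peaks (0.302%, 0.183 to 0.498). These 18 were singled out after their values were seen. They were of 2 kinds. In 10 stretches, between 11.7 and 31.4 kb long and holding 49 members, the members lay inside a coding gene: YWHAZ, KLF7, DST, PALLD, PDLIM5, OSBPL5, SCAP, TACC2, ITGB1 and NFKBIZ. The 10 members in the YWHAZ stretch (31.4 kb) had areas between 349 and 3969 in E545K and between 272 and 2052 in WT. The PALLD stretch (19.6 kb) held 6 members with areas between 494 and 3681 in E545K and between 467 and 4194 in WT. PALLD encodes palladin, an actin-crosslinking protein, and the coding start nearest to these members is that of CBR4. The DST stretch (25.9 kb) held 5 members with areas between 486 and 4147 in E545K and between 943 and 7012 in WT. Regions that all 3 lists shared within 100 kb of these 10 stretches did not share 1 pattern. Their H1047R percentile minus the mean of the E545K and WT percentiles had a median of -5.73 over 17 regions at DST and of -6.18 over 16 regions at PALLD, against 2.96 over all 69662 shared regions with 1 peak of each list. At the other 8 stretches the median lay between -1.18 at ITGB1 (9 regions) and 7.96 at NFKBIZ (15 regions), with 1.01 over 14 regions at YWHAZ.

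The other 8 stretches, which held 50 members, were 402 to 5684 kb long and poor in genes. On chromosome 16 a stretch of 611 kb (65659195 to 66270501) between CDH11 and CDH5 had 12 E545K and 15 WT peaks and no H1047R peak, and held 11 members with areas between 209 and 508 in E545K and between 245 and 676 in WT. The next stretch on the CDH11 side, 5684 kb long, held 4 more. On chromosome 12 a stretch of 943 kb (5022883 to 5965970) with the starts of KCNA5, NTF3 and ANO2 held 8 members, the largest with an area of 1546 in E545K and 845 in WT. Also on chromosome 12, a stretch of 669 kb between RBM19 and TBX3 held 8 members, among them the sharp region upstream of RBM19 with an area of 1679 in E545K and 1884 in WT. On chromosome 5 a stretch of 1282 kb beginning inside IRX1 held 6 members, whose strongest had an area of 2228 in E545K and 1905 in WT. A pair of neighbouring stretches on chromosome 10 around CXCL12, 621 and 563 kb long, held 4 and 5 members, and 1 in TMEM132D on chromosome 12 (402 kb) held 4. No coding start inside these 8 stretches had an E545K or WT promoter peak. Stretches end at H1047R peaks by construction. The IRX1 promoter peak is such an end, so its presence in H1047R was fixed by the cut. Its area was 7109 in H1047R, 5063 in E545K and 6543 in WT. The TBX3 promoter, beyond the end of its stretch, had 7714 in H1047R, 7093 in E545K and 8158 in WT.

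**Figure D3:**
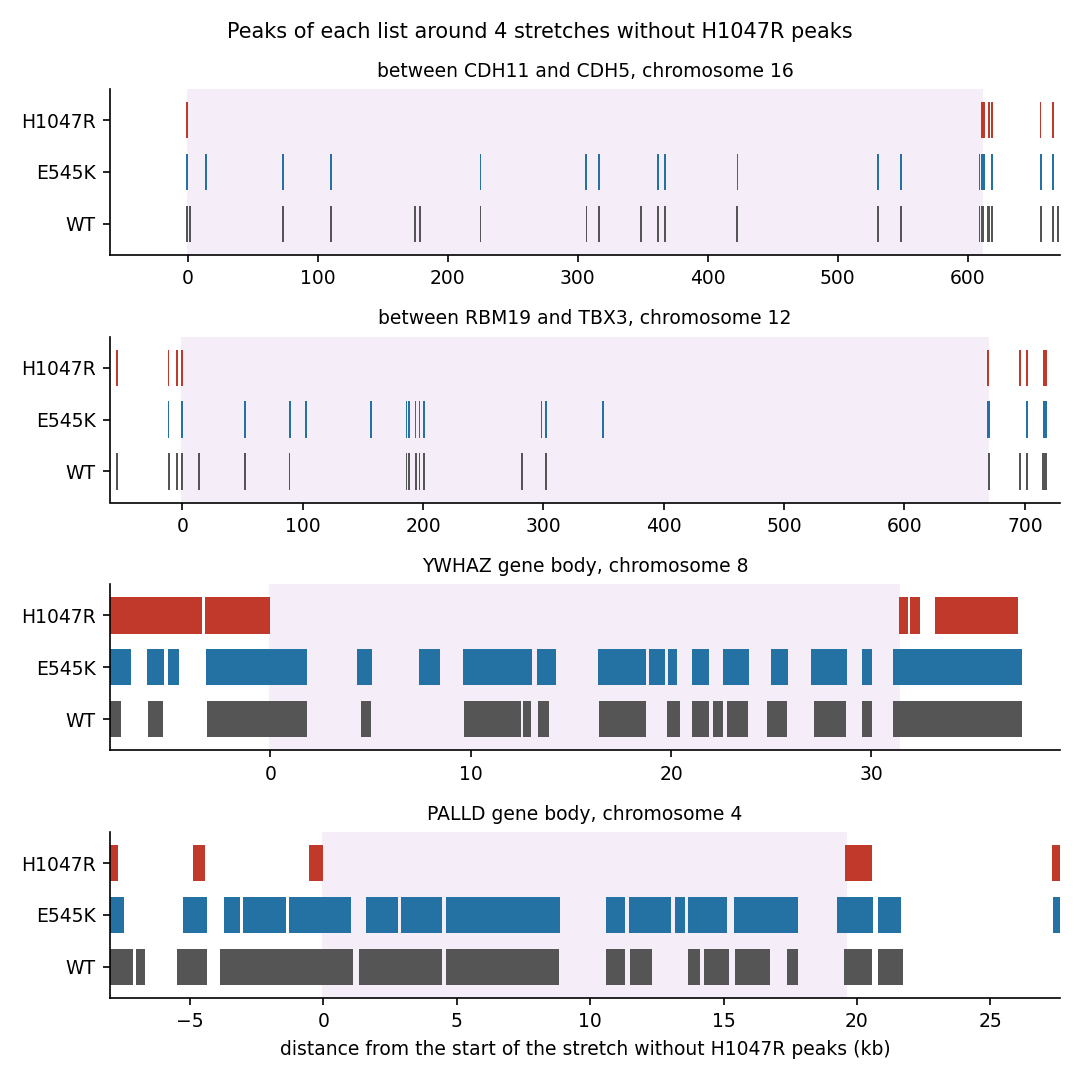
Peaks of the H1047R (red), E545K (blue) and WT (grey) lists along 4 stretches without H1047R peaks, which are shaded; the horizontal axis is distance in kb from the start of the stretch, and very short peaks are drawn at a minimum width. The upper 2 maps, 611 and 669 kb long, show scattered short peaks of E545K and WT at like places, and the lower 2, 31.4 and 19.6 kb long, show dense wide peaks inside a gene.

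Over chromosomes the share of E545K and WT regions without an H1047R peak lay between 2.63% on chromosome 7 and 5.67% (49 of 864, 4.32 to 7.42) on chromosome 21. Of 2642 windows of 1 Mb, 1272 held no member and 15 held at least 8. The window of chromosome 5 between 1 and 2 Mb had the most (12 of 56 regions), followed by 3 windows with 11 each, on chromosome 5 between 3 and 4 Mb (11 of 17), chromosome 4 (11 of 64) and chromosome 7 (11 of 73). Over the first 5 Mb of chromosome 5, 37 of 165 regions were members (22.4%, 16.7 to 29.4). There the 115 shared regions with 1 peak of each list had a median shift of -0.70 for H1047R, -6.88 for E545K and 8.40 for WT. Over all 69662 such regions the medians were 2.96 for H1047R, -3.67 for E545K and 0.96 for WT. The part of DNA copy number in this was not tested. The window of chromosome 16 between 65 and 66 Mb had 9 members among 10 regions.

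The gene lists followed the same loci. Against 2.93% for all placed regions, members made up 15.9% (10 of 63) of the regions at 14-3-3 genes, all 10 at YWHAZ. They made up 11.9% (16 of 134) at basal breast epithelial genes, with 8 at CAV1 and 2 each at ITGB4 and CDH3, which encodes P-cadherin, and 10.1% (11 of 109) at matrix integrins, with 6 at ITGB1, 4 at ITGB6 and 1 at ITGA2. Focal adhesion scaffolds had 7.19% (12 of 167), with 7 at NEDD9 and 2 at VCL, which encodes vinculin. FOXO targets had 6.94% (12 of 173), with 6 at FBXO32. Hemidesmosome and associated matrix genes had 6.58% (5 of 76), among them members at ITGB4 and ITGA6. Their interval of 2.84 to 14.5 holds the background. Epithelial-mesenchymal transition and fibroblast genes had 6.08% (9 of 148), among them FN1, FBN1 and THBS1 with 2 each, all matrix proteins, and VIM with 1. Many of these members are neighbouring pieces of 1 locus, so the shares rest on few genes.

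The other lists lay nearer the background, some above and some below it. Apart from the actin list given last, their Wilson intervals all held 2.93%. NF-kappaB and inflammation genes had 5.30% (8 of 151), 4 of them at NFKBIZ, an atypical IkappaB protein. EGF-MAPK early response genes had 4.76% (10 of 210), among them DUSP5, a phosphatase of ERK, with 4, and FOSL2, an AP-1 subunit, with 2. TGF-beta genes had 4.73% (8 of 169), with 3 at the receptor TGFBR2 and 2 each at INHBA and BMP2. PI3K-AKT-mTOR genes had 4.0% (5 of 125), with 1 each at PIK3IP1, an inhibitor of PI3K, RICTOR, a subunit of mTORC2, INPP4B, a lipid phosphatase, and PIK3R3, a regulatory subunit, among others. STAT and SOCS genes had 3.85%, 3 of 4 at the cytokine receptor OSMR. Glucocorticoid response genes had 3.77%, 3 of 4 at the clock gene PER1, and retinoid genes had 4.55%, with 2 at the receptor RXRA. ERBB receptors and ligands had 3.53%, with 2 at NRG1 and 1 at EPGN, both ligands. Sterol and fatty acid genes had 2.88% and luminal genes 2.74%. Cell junction genes had 2.53%, G1 cyclins and inhibitors 2.63% (both at CDKN1C), other cell types 2.6%, YAP and TEAD genes 1.90%, housekeeping genes 1.75%, WNT genes 1.40%, p53 targets 1.06%, hypoxia and glycolysis 0.758%, and keratinocyte differentiation genes 0 of 54 regions. An actin cytoskeleton and SRF list, chosen after these values were seen, had 8.99% (24 of 267), at 13 of its genes. Among them were PDLIM5, MYH9, which encodes non-muscle myosin, and VCL. This list is no independent evidence either.

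The DNA letters were not used by the rule, and here members differed from shared regions. Of 26 motifs sought within 100 bp of the WT summit, 13 had a share in shared regions, weighted to the members' WT areas, outside the members' Wilson interval, 5 of them higher in members and 8 lower. The CArG box of SRF had the largest ratio above 1, and AP-1 the largest difference in percentage points. The CArG box occurred in 117 members (4.55%, 3.81 to 5.43), against 1.09% of weighted shared regions, 0.900% of weighted regions without E545K and 1.16% of all shared regions. The glucocorticoid receptor motif occurred in 51 members (1.98%, 1.51 to 2.6), against 0.681% of weighted shared regions, 0.612% of weighted regions without E545K and 0.825% of all shared regions. The TEAD motif (GGAATG on either strand) occurred in 609 members (23.7%, 22.1 to 25.4), against 17.5% of weighted shared regions, 17.2% of weighted regions without E545K and 17.7% of all shared regions. AP-1 went the other way, with 525 members (20.4%, 18.9 to 22), against 38.1% of weighted shared regions, 40.6% of weighted regions without E545K and 34.9% of all shared regions.

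The differences were as large among regions of like base composition. The median GC content around the summit was 47.3% in members, 45.8% in regions without E545K and 50.2% in shared regions. Weighting shared regions jointly by area and GC left their shares at 1.12% for CArG, 0.724% for the glucocorticoid receptor, 17.4% for TEAD and 38.7% for AP-1. Among the remaining motifs CTCF occurred in 2.57% of members against 4.15% of weighted shared regions, but in 2.76% of weighted regions without E545K, and HOX-PBX in 8.17% of members against 11.1% of weighted shared regions. KLF-SP (GGGCGG, 8.60% against 9.17%), RUNX (TGTGGTT, 7.12% against 6.95%), the p53 family motif (8.67% against 8.30%) and forkhead (TGTTTAC, 3.70% against 3.54%) were alike in members and weighted shared regions within the members' intervals.

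**Figure D4:**
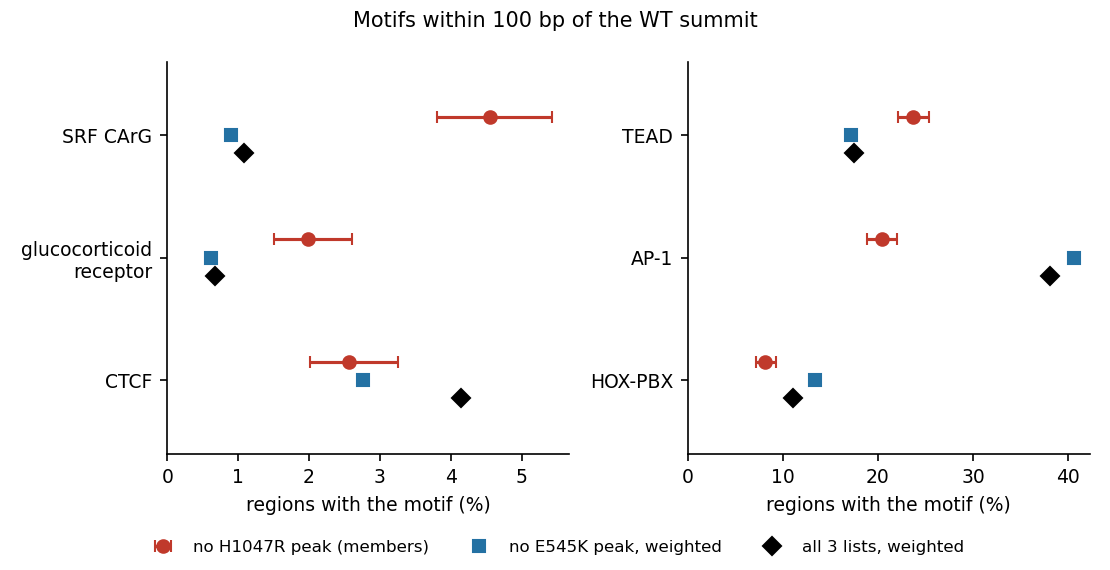
Percent of regions with a motif within 100 bp of the WT summit (horizontal axes, separate scales) for members (red circles, Wilson 95% intervals), regions without an E545K peak (blue squares) and regions of all 3 lists (black diamonds), with squares and diamonds weighted to the members' WT areas. CArG, glucocorticoid receptor and TEAD motifs are more frequent in members, at 4.55%, 1.98% and 23.7%, and AP-1 is less frequent, at 20.4%.

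The motif shares differed by width. Members up to 1000 bp had CArG boxes in 5.13% (4.28 to 6.14) and TEAD motifs in 26.2% (24.4 to 28.1). Members over 1000 bp had CArG boxes in 1.29% (0.550 to 2.97) and TEAD motifs in 9.51% (6.98 to 12.8). The drop was not particular to these motifs. AP-1 went from 22.2% to 10.3%, RUNX from 7.97% to 2.31% and forkhead from 4.17% to 1.03%, whereas KLF-SP rose from 7.38% to 15.4%. The median GC content around the summit was 45.8% in the narrower and 58.7% in the wider members. The part of base composition in these differences by width was not tested. None of the 99 members in the stretches of at least 4 had a CArG box, which allows a share of up to 3.74% (upper Wilson bound). The 117 CArG members were spread instead over 22 chromosomes, with 65 in introns, 46 between genes, 4 in exons and 2 at promoters. Of them 73 had a coding start within 100 kb, at 73 different genes. TEAD motifs were present in 35% of CArG members and in 23.1% of the other members. Turned round, 971 regions with E545K and WT peaks had a CArG box, and 12% of them (10.1 to 14.2) had no H1047R peak, against 3.37% of all such regions. For regions with a TEAD motif it was 4.45% of 13686.

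The same order of motifs appeared in regions that the rule did not choose. For the 69662 regions with exactly 1 peak of each list, the H1047R percentile was set against the mean of the E545K and WT percentiles, and regions were split into deciles of this shift. In the lowest decile, with a median shift of -13.38, CArG boxes occurred in 214 of 6967 regions (3.07%, 2.69 to 3.50), whereas in the highest decile, with a median shift of 25.54, they occurred in 0.603% (0.446 to 0.814). TEAD occurred in 27.7% (26.7 to 28.8) of the lowest and 14.4% (13.6 to 15.3) of the highest decile, and the glucocorticoid receptor motif in 1.81% (1.52 to 2.15) of the lowest and 0.445% (0.314 to 0.631) of the highest. AP-1 occurred in 24.1% (23.1 to 25.1) of the lowest and 52.6% (51.4 to 53.8) of the highest decile. The lowest decile had a median WT percentile of 51.4 and GC content of 46.8%, and the highest had 30.7 and 47.8%, so the deciles also differed in strength. For the shift of E545K the order was turned, with CArG in 0.890% of its lowest and 2.28% of its highest decile. For the shift of WT it was 0.876% in the lowest and 1.55% in the highest. The 3 shifts come from the same 3 ranks and are not independent of each other, and the lists are those that chose the members.

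**Figure D5:**
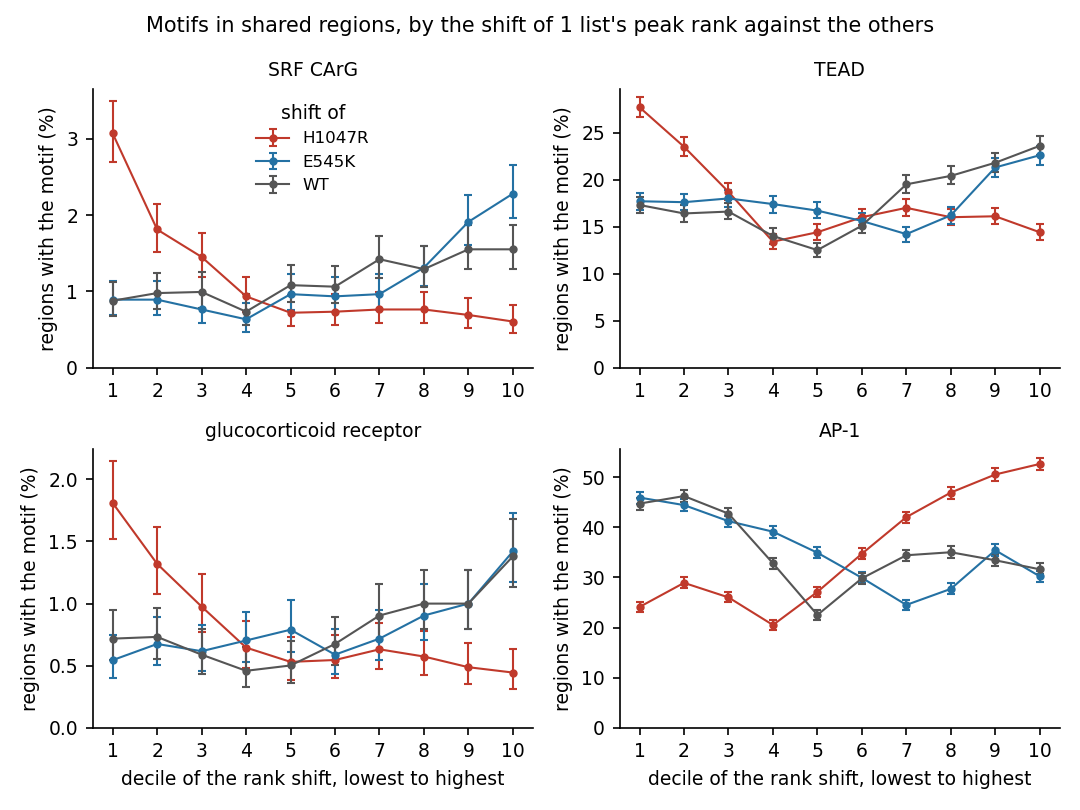
Percent of shared regions with each motif (vertical axes) by decile of the rank shift of 1 list's peak against the mean rank of the other lists, lowest to highest (horizontal axes), for shifts of H1047R (red), E545K (blue) and WT (grey); bars are Wilson 95% intervals. CArG, TEAD and glucocorticoid receptor motifs are most frequent where H1047R ranks low, with CArG at 3.07% in the lowest decile and 0.603% in the highest, and AP-1 where it ranks high.

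Shared regions near members also ranked lower in H1047R than those elsewhere. Within 100 kb of a member the median H1047R shift was 1.54 over 15306 regions (quartiles -2.35 and 7.87), against 3.39 over the 54356 regions elsewhere (quartiles -0.30 and 10.71). The difference was -1.85, well inside the spread between regions. Within 20 kb the median was 0.17 over 4349 regions, against 3.17 over the other 65313. The corresponding difference at 100 kb was 1.08 for E545K and 0.68 for WT.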

How the data were processed

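ATAC-seq of MCF-10A cells was deposited as 1 peak list per genotype, each from 2 samples. Per the submitters' processing notes, reads were handled with Trim Galore 0.4.0, cutadapt, FastQC, SAMtools and an aligner not given in the sources used here, peaks were called with Genrich 0.6.1, and the build was hg38. The authors deposited a signal for each peak, the area under the caller's curve, and a −log10 p at its summit. Both were used to rank and describe peaks of 1 list. The lists hold neither depth nor per-sample values, so no value has a replicate error and no test was made.

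Computations used Python 3.11.15, numpy 2.4.6, pandas 2.3.3, scipy 1.17.1, pysam 0.24.0 and matplotlib 3.10.9. Merged regions were checked against bedtools 2.31.1 and the steps were tested on simulated data. Where a region held several peaks of a list, the largest gave its values. A region's class came from its midpoint, with gene models of GENCODE release 44. A peak's percentile is its rank by area within its list, and strong peaks are the upper 50%. Shares of shared regions were weighted to 10 classes of the members' WT area, or jointly with 5 classes of GC content. Shares have Wilson 95% intervals.

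Genes named are the 15 with most members, those nearest the 15 strongest members and the 15 strongest promoter members, up to 4 per gene list, and PIK3CA, except that a few genes and sequences are not reported here. Further loci, the genes hosting CArG boxes, the actin list, the equal-length values of the other classes, and the attention given to the CArG and glucocorticoid receptor motifs were chosen after their values were seen. The members and the 26 gene lists were chosen with earlier results of these data known. Alternatives were a peak area of at least 400, lists cut to 89416 peaks, other merging, distance, promoter and motif windows, and leaving out chromosome 8.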

Additional observations from a re-analysis of the deposited data

How the results depend on the processing

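No paired analysis was possible because each genotype has 1 pooled list, so replicates could not be paired or left out in turn. Of 107 recomputed values, 64 kept to within 1.5 times the value given, or for a share to its interval, and 43 moved. Only the motif ratios and the rank shifts could change direction, and 0 did. Counts and shares cannot. With peaks of area 400 or more, strong members numbered 89, genes with at least 4 members 12, and the TEAD share was 25.5%. With lists cut to the length of the shortest, members numbered 4698, which were 6.38% of E545K and WT regions, 2.04% were at promoters, 43 genes had at least 4, and the shares were 3.28% for CArG and 1.47% for the glucocorticoid receptor. This setting raises the H1047R threshold. With peaks up to 200 bp apart merged, members were 3.15% and 12 genes had at least 4. With 1000 bp, members were 2.80%, strong members 78, genes with at least 4 members 4, AP-1 22.9% and TEAD 25.6%. By pairwise overlap members were 3.57% and 36 genes had at least 4. Within 50 bp of the summit the shares were 14.9% for AP-1, 15.8% for TEAD, 2.53% for CArG and 1.36% for the glucocorticoid receptor. Over whole regions they were 30.1%, 40.4%, 7.23% and 3.15% in the same order. Under each of these settings AP-1 stayed below, and the other 3 motifs above, the weighted shared share. Promoter members were 1.83% within 500 bp and 4.67% within 2 kb. Strong members numbered 47 by summit and 23 in the upper 25%. Members were 4.68% of regions at listed genes, against 2.93% of all placed regions, but the lists were chosen with earlier results of these data known. Among strong regions they were 1.32% (23 of 1737) at listed genes. The share was 0.350% of all strong E545K and WT regions, at any distance from a gene. The shift near members was -3.0 within 20 kb. Depth, which is unknown, limits what the absence of a peak can show.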
